A study of Mus musculus with 4 samples.

Results

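Fc receptors are cell-surface proteins that bind the constant part of antibodies, and 6 of the 27998 genes in the count tables were followed here: Fcgr3, Fcgr1 and Fcgr2b, which encode IgG receptors, and Fcer1a, Ms4a2 and Fcer1g, which encode the alpha, beta and gamma chains of the high-affinity IgE receptor. They were picked by symbol, and the choice was made with earlier results of these same libraries in view, so the genes count as selected on their UMI levels across progenitor types and on their differences between genotypes. The comparisons between genotypes given here are therefore descriptions of these libraries, and their p-values are not independent evidence. No cutoff defined the group, so no gene lies just inside or just outside it.

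The cells were LSK cells (live Lin-Sca1+cKit+), the bone marrow fraction that holds hematopoietic stem cells and multipotent progenitors, sorted from mice 9 to 12 weeks old. Every animal carried Nup358 fl/fl alleles. The controls (labelled wild-type) had no Cre, and the knockouts had CreERT2, a tamoxifen-activated recombinase expressed from the ubiquitous R26 locus. Both groups received tamoxifen on 3 consecutive days, and each of the 2 libraries per genotype was a pool of 3 bone marrows, so that p-values measure the spread between pools. Because Cre was active in every tissue, differences in the progenitors cannot be told apart from differences that arose in the rest of the animal. The deleted gene, listed as Ranbp2, is no check of genotype in 3′ counts: it stood at 127 and 101 UMIs per 1000000 UMIs (CPM) in controls and at 124 and 126 CPM in knockouts.

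The activating receptors work through a shared signalling subunit. Fcgr3 (CD16) and Fcgr1 (CD64, the high-affinity IgG receptor) need the gamma chain Fcer1g, whose cytoplasmic tail carries the tyrosine motif that recruits the kinase Syk, whereas Fcgr2b (CD32) carries an inhibitory motif that recruits the phosphatase Inpp5d. In bone marrow, antibodies to CD16/32 mark granulocyte and monocyte progenitors, and the IgE receptor is known from basophils and mast cells.

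In the annotation of the GRCm38 build used for the counts (GENCODE vM21), all 6 genes lie on the minus strand and 4 of them on chromosome 1. Fcgr2b occupies chr1:170958617-170976547, Fcgr3 chr1:171051174-171064935, Fcer1g chr1:171229572-171234365 and Fcer1a chr1:173221284-173227214. A further receptor gene, Fcgr4, lies between Fcgr2b and Fcgr3, and 164.6 kb separate Fcgr3 from Fcer1g. Fcgr1 lies at chr3:96282909-96293969 and Ms4a2 at chr19:11615523-11623719. No stretch of 31 bases was shared between the last 500 bases of any of these genes or of Fcgr4, the part that 3′ reads come from, and no gene on the same strand overlapped their 3′ ends.

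The 250 bases before the annotated transcription start are shown for 4 genes, the receptor chains on which most of the results turn, from RefSeq on GRCm38.p6, read on the minus strand. Capitals mark matches, on either strand, to motifs of the factors GATA, known from erythroid, megakaryocyte and mast cells, PU.1, known from myeloid and B cells, and C/EBP, known from granulocytes. GATA was searched for as AGATAA and as TGATAA and also as AGATAG and as TGATAG. PU.1 was searched for as GAGGAA. The C/EBP motif was TTGCNNAA. The Fcgr3 window is chr1:171059404-171059653, for the first of 2 listed starts. It lies inside the Fcgr3 gene span given above, and the other start was not searched. The other windows are chr1:171234350-171234599 for Fcer1g, chr1:173227230-173227479 for Fcer1a and chr19:11623720-11623969 for Ms4a2.
Fcgr3: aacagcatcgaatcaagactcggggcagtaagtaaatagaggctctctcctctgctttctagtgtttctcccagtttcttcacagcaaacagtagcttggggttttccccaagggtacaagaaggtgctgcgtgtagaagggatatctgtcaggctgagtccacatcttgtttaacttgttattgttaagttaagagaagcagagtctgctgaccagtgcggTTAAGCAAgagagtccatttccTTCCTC
Fcer1g: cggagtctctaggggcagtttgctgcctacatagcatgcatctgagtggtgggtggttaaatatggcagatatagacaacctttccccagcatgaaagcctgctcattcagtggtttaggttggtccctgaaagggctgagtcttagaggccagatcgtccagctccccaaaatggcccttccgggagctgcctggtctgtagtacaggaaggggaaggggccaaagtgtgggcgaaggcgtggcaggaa
Fcer1a: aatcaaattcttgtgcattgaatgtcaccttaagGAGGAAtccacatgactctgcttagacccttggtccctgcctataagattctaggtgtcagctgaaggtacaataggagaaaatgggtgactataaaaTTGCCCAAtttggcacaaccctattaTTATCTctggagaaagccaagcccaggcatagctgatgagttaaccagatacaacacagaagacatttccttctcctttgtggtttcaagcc
Ms4a2: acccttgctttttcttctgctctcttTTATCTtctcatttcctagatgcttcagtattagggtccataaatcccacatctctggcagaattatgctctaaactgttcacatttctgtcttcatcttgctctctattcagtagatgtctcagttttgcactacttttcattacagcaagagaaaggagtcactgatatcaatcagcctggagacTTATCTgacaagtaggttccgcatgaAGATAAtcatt
Fcgr3 held a PU.1 match from 6 to 1 bases and a C/EBP match from 28 to 21 bases before the start. Ms4a2 held 3 GATA matches, from 224 to 219, from 37 to 32 and from 11 to 6 bases before the start. Fcer1a held a match to each motif, and Fcer1g and Fcgr2b (window not shown) held none. Fcgr1 (not shown) held a PU.1 match from 55 to 50 bases before its start. Such letters are common: of 27025 promoter windows of this length, 27.1% held the GATA motif, 23.1% the PU.1 motif and 9.55% the C/EBP motif, and the motifs can overlap. A match is a string of letters, and no binding was measured.

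Many barcodes occurred in more than 1 library, so a barcode was left out of a library when another library held the same sequence with at least 3 times as many UMIs. This removed 14.8% and 81.8% of the barcodes of controls 1 and 2 and 65.3% and 18.8% of those of knockouts 1 and 2, which held between 1.61% and 24.6% of the UMIs. The 14041 cells kept were 7830, 1200, 1589 and 3422 in that order of libraries, with 18846887 to 59033602 UMIs per library. Median depths were 6251, 13175.5, 17707 and 14398.5 UMIs per cell in the same order, so both controls were shallower than both knockouts. Of the lists for other cells that a sort can carry over, the 8 mature neutrophil genes summed to 366 and 2237 CPM in controls and 131 and 202 CPM in knockouts, none at 0. The 8 macrophage genes summed to between 3.18 and 17.045 CPM and the 6 T and NK genes to between 196 and 281 CPM. Fcgr3 and Fcer1g are expressed by mature neutrophils, macrophages and NK cells. Without the 200 cells that scored for these lists, the log2 change over all LSK cells was −3.19 for Fcgr3 and −1.55 for Fcer1g. Only cells with a score of at least 0.75 and at least 3 detected genes of a list were left out (73, 29, 46 and 52 by library). Cells below that cut stayed in, and their part in the differences was not tested. The sort genes Kit, Ly6a, Ptprc and Cd34 summed to between 637 and 783 CPM in every library, a sum that does not show how many cells lacked them. The lists for other cells did not cover B cells or plasmacytoid dendritic cells.

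Over all LSK cells, 3 of the 6 genes passed the edgeR quasi-likelihood test at an adjusted p of 0.05, against a background of 3.44% of the 13779 genes tested: Fcgr3 and Fcer1g were lower in the knockout and Ms4a2 was higher. Fcgr3, the low-affinity activating IgG receptor, had 17.1 and 18.5 CPM in controls (1010 and 348 UMIs) and 2.08 and 1.93 CPM in knockouts (68 and 104 UMIs). The genotypes were far apart and the libraries of each close together, with means of 17.8 ± 0.959 and 2.00 ± 0.103 CPM (SD, n = 2 libraries). The log2 fold change was −3.19 (SE 0.18, adjusted p = 0.0063, edgeR), and it lay between −3.27 and −3.12 when any library was left out. In UMIs summed over all cells, fewer cells of a type and fewer UMIs per cell cannot be told apart, and both are taken up by progenitor type in what follows.

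Fcer1g, the shared gamma chain, had 137 and 147 CPM in controls and 55.3 and 46.4 CPM in knockouts. Every knockout library lay below every control library, with a log2 fold change of −1.52 (SE 0.16, adjusted p = 0.0079, edgeR). Fcgr1, the high-affinity IgG receptor, was scarce in every library, at 1.08 and 0.902 CPM in controls and 0.855 and 0.669 CPM in knockouts, or 17 to 64 UMIs per library. Its log2 fold change of −0.45 (SE 0.35, adjusted p = 0.506, edgeR) was not distinguishable from 0 at this depth.

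Fcgr2b, the inhibitory IgG receptor, had 20.2 and 22.0 CPM in controls and 14.1 and 10.2 CPM in knockouts. The groups did not overlap, but the log2 fold change of −0.84 (SE 0.19) did not pass the test (adjusted p = 0.0649, edgeR). It passed in DESeq2 and when control 1, control 2 or knockout 1 was left out, and not without knockout 2 (adjusted p = 0.496, edgeR).

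Of the chains particular to the IgE receptor, only Ms4a2 passed the test. Ms4a2, the beta chain, had 1.98 and 1.64 CPM in controls (117 and 31 UMIs) and 4.77 and 5.59 CPM in knockouts (156 and 301 UMIs). Both knockout libraries were above both control libraries, with a log2 fold change of 1.46 (SE 0.24, adjusted p = 0.0288, edgeR). Without knockout 2 the value was 1.34 and the adjusted p 0.119. Fcer1a, the IgE-binding alpha chain, had 2.61 and 1.54 CPM in controls and 2.81 and 7.60 CPM in knockouts, so knockout 1 lay near control 1 and knockout 2 well above the rest. Its log2 fold change of 1.26 (SE 0.48, adjusted p = 0.195, edgeR) was 0.37 without knockout 2, whereas without knockout 1 it was 1.80 (adjusted p = 0.0015, edgeR).

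**Figure D1:**
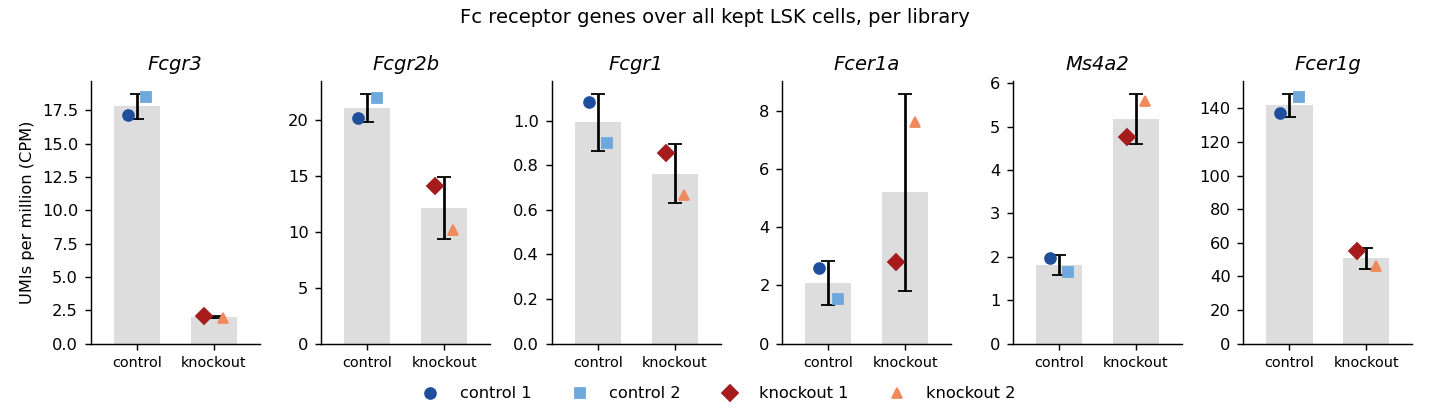
CPM (UMIs per 1000000 UMIs) of each gene over all kept LSK cells, 1 point per library, with bars at the mean and error bars of 1 SD (n = 2 libraries per genotype) on axes that start at 0. Fcgr3 and Fcer1g were lower in both knockout libraries (Fcgr3 at 2.08 and 1.93 CPM against 17.1 and 18.5 CPM), Ms4a2 was higher in both, and for Fcer1a knockout 2 (7.60 CPM) stood apart.

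Cells were next assigned to progenitor types by lists of lineage genes, none of them an Fc receptor gene. A cell's score for a list is the mean z-score of the log-scaled genes, and a cell passed a gate with a score of at least 0.75 and at least 3 detected genes of the list, a cut set after gate sizes were seen. This gated 5030 cells and left 9011 ungated, 974 cells passed several gates and went to the highest score, and 1379 cells lay within 0.1 of the cut. Doublets were not removed. The gates are ranges on scores rather than cell types, and the neutrophil-primed gate had 1326 and 94 cells in controls but 43 and 31 in knockouts. The pro-B and pre-B, mature B and plasmacytoid dendritic gates each held 2.02% to 6.55% of a knockout library. In controls each held at most 0.25%. A Kit UMI was found in 6.15% to 29.0% of their knockout cells, against 70.0% and 60.8% of ungated knockout cells. Their median depths in knockouts were lower too, from 1311 to 7657 UMIs. They stayed in every value over all LSK cells, and how many were LSK cells was not tested.

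Fcgr3 was concentrated in the neutrophil-primed, monocyte- and dendritic-primed and basophil- and mast-primed gates. In the neutrophil-primed gate, drawn on Elane and other neutrophil lineage genes, it had 48.8 and 79.8 CPM in controls. In knockouts it had 16.1 and 8.10 CPM there, from 22 and 6 UMIs. In the monocyte- and dendritic-primed gate it had 22.1 and 60.6 CPM in controls, 3.47 CPM in knockout 1 and no UMI in the 17 cells of knockout 2. The basophil- and mast-primed gate held Fcgr3 UMIs in both genotypes. It had 35.7 and 146 CPM in controls (4 and 5 UMIs) and 58.3 and 99.8 CPM in knockouts (18 and 63 UMIs). The control UMIs came from 3 of 16 cells and 1 of 2 cells, the knockout UMIs from 5 of 10 and 18 of 35 cells. With so few control cells, whether the level differed between genotypes there cannot be told, and it was not tested. Pooled over libraries, Fcgr3 was highest in the basophil- and mast-primed gate, at 82.9 CPM, but the libraries overlapped with those of the neutrophil-primed gate. In the megakaryocyte-primed, erythroid-primed, stem-like and lymphoid-primed gates it had between 0 and 2.44 CPM, and in ungated cells 1.49 and 1.74 CPM in controls against 0.953 and 0.521 CPM in knockouts.

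Where Fcgr3 UMIs came from therefore changed with genotype. The neutrophil-primed gate held 82.3% and 68.7% of them in controls and 32.4% and 5.77% in knockouts. The size of that gate changed too: it held 28.9% and 15.9% of all UMIs in controls and 4.17% and 1.375% in knockouts. The basophil- and mast-primed gate held 0.396% and 1.44% of the Fcgr3 UMIs in controls and 26.5% and 60.6% in knockouts. Of all UMIs it held 0.19% and 0.182% in controls and 0.943% and 1.17% in knockouts. With every library weighted to the mean gate make-up of the controls, the difference in mean CPM went from −3.15 to −2.46 on the log2 scale, a value with no test.

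Fcgr2b was spread more widely. In the neutrophil-primed gate it had 38.3 and 55.8 CPM in controls and 55.7 and 39.2 CPM in knockouts, so the genotypes overlapped fully. In the monocyte- and dendritic-primed gate the values were 30.4 and 57.7 CPM in controls and 32.9 and 23.7 CPM in knockouts. Its highest pooled level, 60.7 CPM, was in the mature B gate, which held 65 and 72 cells in knockouts but only 1 cell in controls; B cells are a known site of this inhibitory receptor. Without the cells that passed several gates the mature B gate had 23.6 CPM, and the neutrophil-primed gate was highest at 42.5 CPM. Ungated cells had between 9.77 and 13.6 CPM and the stem-like gate between 1.99 and 9.61 CPM. In the stem-like gate the means were 8.08 ± 2.17 CPM in controls and 2.91 ± 1.31 CPM in knockouts (SD, n = 2). These came from 13 and 9 UMIs in controls and 3 and 10 UMIs in knockouts, too few for the gate's own test. At the gate make-up of the controls, its log2 difference between genotypes went from −0.80 to −0.14.

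Fcgr1 had its highest pooled level, 5.22 CPM, in the monocyte- and dendritic-primed gate, with 4.21 and 9.98 CPM in controls and 3.47 and 5.91 CPM in knockouts, the latter from 2 and 1 UMIs. The other gates lay between 0 and 3.89 CPM. Neighbours in this order do not differ beyond their spread, and the first place depended on how the gates were drawn. Without the cells that passed several gates the monocyte- and dendritic-primed gate had 1.53 CPM and the plasmacytoid dendritic gate 4.11 CPM, and with gates on thinned cells they had 5.04 and 7.77 CPM.

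**Figure D2:**
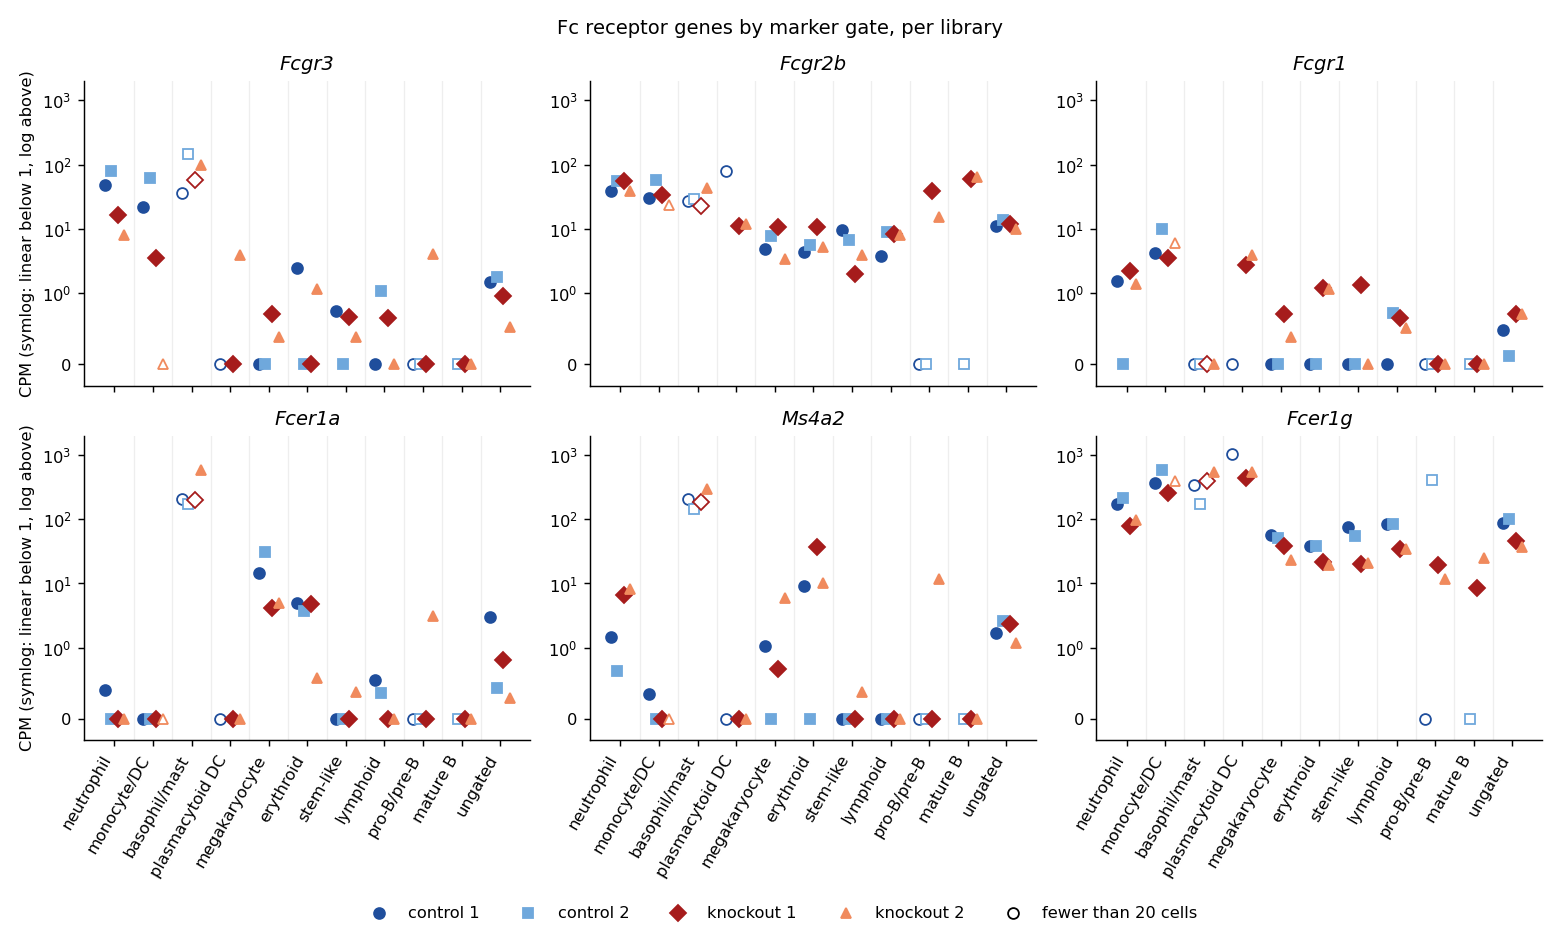
CPM of each gene in each marker gate and in ungated cells, 1 point per library, on an axis that is linear below 1 and logarithmic above; open symbols stand for fewer than 20 cells. Fcer1a and Ms4a2 peaked in the basophil- and mast-primed gate, Fcgr3 there and in the neutrophil-primed and monocyte- and dendritic-primed gates of the controls, and Fcer1g was lower in both knockouts than in both controls in the neutrophil-primed, megakaryocyte-primed, erythroid-primed, stem-like and lymphoid-primed gates.

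Fcer1a had its highest level in basophil- and mast-primed cells, which were drawn on protease genes and other genes of these lineages. There it had 205 and 175 CPM in controls, from 23 and 6 UMIs in gates of 16 and 2 cells, and 201 and 596 CPM in knockouts, from 62 and 376 UMIs in gates of 10 and 35 cells. Knockout 2 thus had both the most gated cells and the highest level, while the other 3 libraries lay close together. The basophil- and mast-primed gate held 14.9% and 20.7% of all Fcer1a UMIs in controls and 67.4% and 91.9% in knockouts. Its share of the UMIs of all genes was 0.19% and 0.182% in controls and 0.943% and 1.17% in knockouts. The megakaryocyte-primed gate held more of the Fcer1a UMIs in controls, 17.5% and 55.2%, and 6.52% and 3.18% in knockouts. Its share of the UMIs of all genes was 3.16% and 2.71% in controls and 4.36% and 4.95% in knockouts. In control 1, 57.1% of the Fcer1a UMIs lay in ungated cells, which held 49.9% of the UMIs of all genes there. By CPM the megakaryocyte-primed gate was a lower site, with 14.5 and 31.3 CPM in controls and 4.21 and 4.87 CPM in knockouts. Controls and knockouts did not overlap there, and the log2 fold change was −2.01 (SE 0.48, adjusted p = 0.0798, edgeR). Over the 1298 neutrophil-primed cells of control 1 with at least 4000 UMIs, thinned to that depth, 0 held a Fcer1a UMI, which allows a share of up to 0.231% by the floor of 3 cells and 0.284% by the exact 95% interval. At full depth 3 cells of that gate and library held 7 UMIs.

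Ms4a2 shared the basophil- and mast-primed site, with 205 and 146 CPM in controls and 188 and 298 CPM in knockouts. It was also found in the erythroid-primed gate, at 9.17 and 0 CPM in controls and 36.8 and 10.3 CPM in knockouts, but there 26 of the 31 UMIs of knockout 1 and 13 of the 15 UMIs of control 1 came from 1 cell each. In the pro-B and pre-B gate of knockout 2, 22 of 26 UMIs came from 1 cell. In the neutrophil-primed gate the UMIs were spread over more cells: 25 UMIs in 22 cells and 2 UMIs in 2 cells of controls, and 9 UMIs in 6 cells and 6 UMIs in 4 cells of knockouts.

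The 2 genes therefore overlapped in cells only in part. Of the 159 cells with a Fcer1a UMI and the 195 cells with an Ms4a2 UMI, 57 held both, 38 of them (66.7%) in the basophil- and mast-primed gate. Of the 102 cells with Fcer1a and no Ms4a2, 49.0% were ungated and 36.3% in the megakaryocyte-primed gate. Of the 138 cells with Ms4a2 and no Fcer1a, 51.4% were ungated and 23.9% in the neutrophil-primed gate. No Fcer1a UMI fell in any of the 126 cells with a Fcgr1 UMI. As only 1.13% of all cells held a Fcer1a UMI, this is no sign that the 2 genes exclude each other. A missing UMI is not absence at these depths.

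Outside the basophil- and mast-primed gate the alpha chain turned around. Fcer1a there had 2.22 and 1.22 CPM in controls and 0.925 and 0.620 CPM in knockouts. Ms4a2 stayed higher in knockouts, at 3.02 and 2.12 CPM against 1.595 and 1.38 CPM in controls. These values include the single cells with many Ms4a2 UMIs in control 1 and in both knockouts named above. In ungated cells alone Ms4a2 was not higher, with means of 2.16 ± 0.648 CPM in controls and 1.78 ± 0.822 CPM in knockouts (SD, n = 2). At the gate make-up of the controls, the log2 difference of Fcer1a went from 1.33 to −0.75 and that of Ms4a2 from 1.51 to 1.07. These are differences of mean CPM with no test. The gate needed 3 detected genes of its list, which depends on depth. Its cells had median depths of 6304.5 and 17143 UMIs in controls and 26620 and 15051 UMIs in knockouts. How many basophil and mast progenitors the gate missed in each library was not tested.

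**Figure D3:**
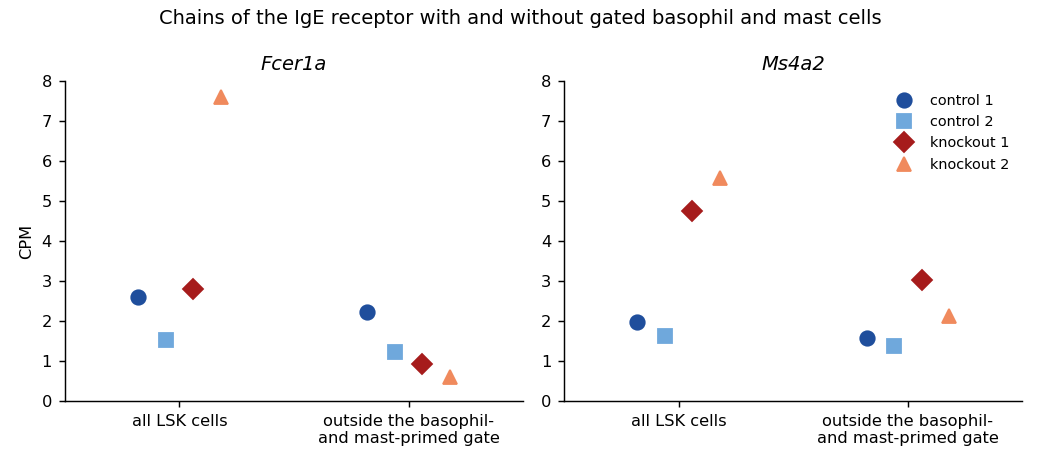
CPM of Fcer1a and Ms4a2 per library, over all LSK cells and over the cells outside the basophil- and mast-primed gate. Leaving out the gated cells took Fcer1a of knockout 2 from 7.60 to 0.620 CPM, below both controls, while Ms4a2 remained higher in both knockouts.

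Fcer1g was detected in every gate with more than 10 cells, and in 5 gates and in ungated cells both knockouts lay below both controls. Its highest pooled level, 508.5 CPM, was in the plasmacytoid dendritic gate, which held 4 cells in controls and 36 and 69 cells in knockouts, so this level came mostly from knockout cells. The basophil- and mast-primed gate was highest instead with a stricter gate (619 against 507 CPM), with gates on thinned cells (558 against 547.5 CPM) and without cells of several gates (487 against 398 CPM), and the monocyte- and dendritic-primed gate had 366 and 581 CPM in controls and 258 and 402 CPM in knockouts. The basophil- and mast-primed gate had 348 and 175 CPM in controls and 395 and 537 CPM in knockouts. The control values came from 39 and 6 UMIs in gates of 16 and 2 cells, the knockout values from 122 and 339 UMIs in 10 and 35 cells. With so few control cells, whether Fcer1g differed between genotypes in this gate cannot be told, and it was not tested. In the neutrophil-primed gate it had 175 and 217 CPM in controls and 78.3 and 98.6 CPM in knockouts. The stem-like gate, drawn on stem cell genes such as Hlf and Mecom, had 74.7 and 54.5 CPM in controls and 19.9 and 21.1 CPM in knockouts. The lymphoid-primed gate had 85.3 and 83.5 CPM in controls and 34.9 and 35.0 CPM in knockouts. In these 3 gates the genotypes were well separated, and in ungated cells too, at 86.0 and 101 CPM in controls against 45.7 and 37.0 CPM in knockouts. The megakaryocyte-primed gate (56.3 and 50.9 against 38.6 and 23.6 CPM) and the erythroid-primed gate (38.5 and 39.0 against 21.4 and 19.4 CPM) were lower and closer.

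Genotypes were tested inside the 5 gates that held at least 20 cells in every library and in ungated cells, each fitted across all its genes. In the neutrophil-primed gate 2 of the 4 Fc receptor genes that could be tested were called, against 0.756% of all genes there: Fcgr3 (log2 −2.35, SE 0.40, adjusted p = 0.0345, edgeR) and Fcer1g (log2 −1.22, SE 0.23, adjusted p = 0.0467, edgeR). Fcgr2b stood at 0.01 (SE 0.29, adjusted p = 1.00, edgeR) in the same cells. Both calls were lost when all deposited barcodes were kept, with −1.22 (adjusted p = 0.132, edgeR) for Fcgr3 and −0.55 (adjusted p = 0.371, edgeR) for Fcer1g. They were also lost without either knockout library, and without the cells that passed several gates, where Fcgr3 stood at −2.43 and Fcer1g at −0.77.

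Fcer1g passed in the stem-like gate (log2 −1.71, SE 0.24, adjusted p = 0.0061, edgeR), where it was the only one of the 6 genes tested and 1.84% of all genes were called. It passed in the lymphoid-primed gate (log2 −1.27, SE 0.18, adjusted p = 0.0288, edgeR; background 0.523%) and in ungated cells (log2 −1.17, SE 0.17, adjusted p = 0.0223, edgeR; background 5.04%). The lymphoid-primed call was lost without either knockout library and the ungated one without knockout 2. With gates drawn on thinned cells Fcer1g stood at −1.80 in the stem-like gate, −0.71 in the lymphoid-primed gate and −1.23 in ungated cells, and none of these passed. A stricter gate also ended the lymphoid-primed call (−0.81). In the megakaryocyte-primed gate (background 0.71%) it stood at −0.84 (SE 0.25, adjusted p = 0.185, edgeR), and in the erythroid-primed gate (background 0.313%) at −0.97 (SE 0.30, adjusted p = 0.319, edgeR); none of the Fc receptor genes passed in those gates. Fcer1g thus had a negative estimate in each of the 7 sets of cells, from −0.84 to −1.71. The sets share libraries and are not independent.

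In ungated cells the remaining members did not pass: Fcgr3 stood at −1.12 (adjusted p = 0.147), Fcer1a at −1.85 (adjusted p = 0.171), Fcgr2b at −0.17 and Ms4a2 at −0.22, all by edgeR. The sign of Fcer1a there rested on control 1, without which it was 0.24.

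**Figure D4:**
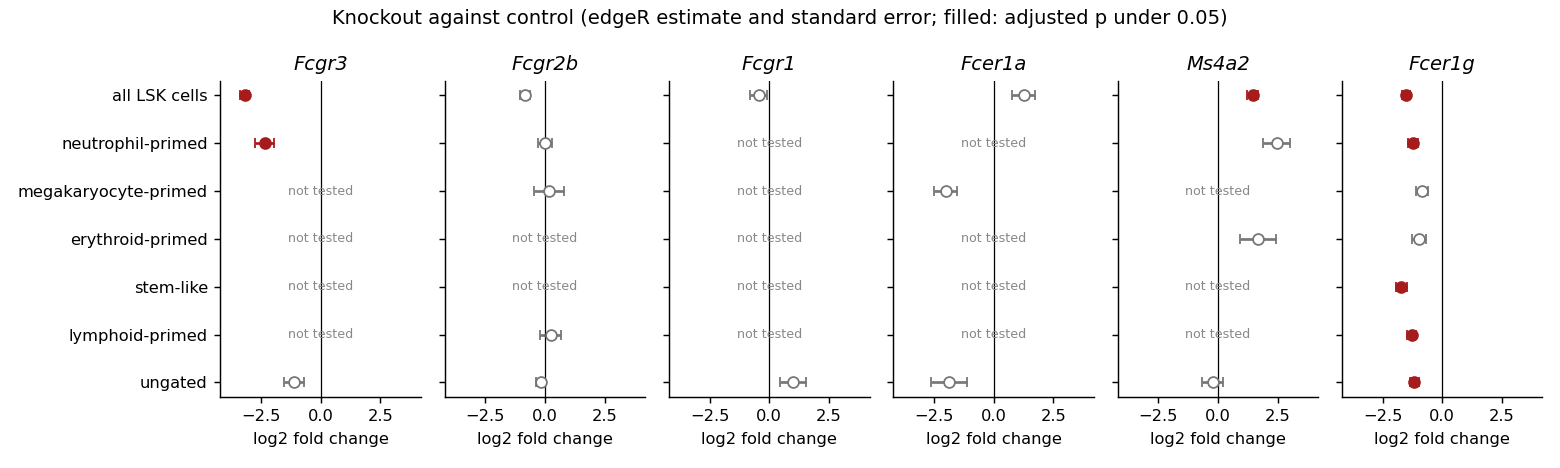
Log2 fold change of knockout against control (edgeR estimate, bars of 1 SE, 2 libraries per genotype) for each gene in each set of cells; filled points have an adjusted p under 0.05, and a gene marked as not tested had too few UMIs in that set. Fcer1g lay left of 0 in each of the 7 sets, whereas Fcgr3 was lower in all LSK cells (−3.19) and in the neutrophil-primed gate (−2.35). Fcgr2b lay at 0.01 (SE 0.29) in the neutrophil-primed, 0.17 (SE 0.63) in the megakaryocyte-primed and 0.24 (SE 0.43) in the lymphoid-primed gate. It was not tested in the erythroid-primed and stem-like gates.

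Whether a gate differed from ungated cells in its knockout effect was tested in a fit over both, with libraries as blocks. In the neutrophil-primed gate 1 of the 6 genes passed, Ms4a2, against 2.72% of all genes. The effect of Fcgr3 there was lower than in ungated cells by a log2 value of −1.23 (SE 0.42, adjusted p = 0.106, edgeR), and that of Fcer1g differed by −0.09 (SE 0.17, adjusted p = 0.900, edgeR). None of the genes tested passed in the megakaryocyte-primed (background 0.526%), erythroid-primed (0.59%), stem-like (0.366%) or lymphoid-primed gate (1.36%), where the estimates for Fcer1g were 0.29, 0.22, −0.47 and −0.000125.

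The neutrophil-primed gate did not hold like cells in both genotypes. Elane, the neutrophil elastase gene that was among the gate's own markers, had 5617 and 5549 CPM there in controls and 612 and 876 CPM in knockouts. Cells were therefore also split by their Elane UMIs per 10000 UMIs. Above 20, control 1 had 986 cells and control 2 had 81, while knockouts 1 and 2 had 2 and 4 cells. Fcgr3 in that bin had 67.2 and 114 CPM in controls and, from 3 and 6 UMIs, 40.6 CPM (exact 95% Poisson interval 8.37 to 119) and 70.5 CPM (25.9 to 154) in knockouts, so no difference was detectable there. Between 2 and 20, Fcgr3 had 6.68 and 7.63 CPM in controls and 13.5 and 18.5 CPM in knockouts. Between 2 and 20 both knockouts lay above both controls, from 72 and 12 UMIs in controls and 23 and 20 UMIs in knockouts. Elane itself still differed inside these 2 bins. Above 20 it had 7429 and 7015 CPM in controls and 3287 and 4703 CPM in knockouts. Between 2 and 20 it had 787 and 850 CPM in controls and 519 and 528 CPM in knockouts, so the bins do not match cells fully. Above 0 and up to 2, Fcgr3 had 1.54 and 1.81 CPM in controls and 3.09 and 8.19 CPM in knockouts, both knockouts above both controls. These values came from 9 and 4 UMIs in controls and 17 and 44 UMIs in knockouts. That bin of knockout 2 also held 20.3 CPM of Fcer1a, against 0.905 to 5.64 CPM in the other libraries. Its Ms4a2 stood at 20.8 CPM, against 1.71 to 8.18 CPM. In the cells with no Elane UMI, from 65.9% to 92.2% of each library, Fcgr3 had 1.17 and 2.50 CPM in controls and 0.982 and 0.719 CPM in knockouts, both knockouts below both controls. The bin between 2 and 20 of knockout 2 also held 131 CPM of Fcer1a, against 0 to 3.81 CPM in the other libraries. Inside the neutrophil-primed gate the same range of Elane held 42, 4, 19 and 0 UMIs of Fcgr3 in the order of libraries.

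Fcer1g was lower in both knockouts within Elane bins that hold enough cells. The bins were drawn on unthinned cells, so the bin of a cell with little Elane also depended on its depth. Median depth over all kept cells was lower in both controls, and the part of depth in these comparisons was not tested. In cells with no Elane UMI it had 86.3 and 99.6 CPM in controls and 49.97 and 41.6 CPM in knockouts, and between 2 and 20 it had 176 and 197 CPM in controls and 67.9 and 117 CPM in knockouts. Fcgr2b had 9.42 and 9.34 CPM in controls and 10.5 and 8.29 CPM in knockouts without Elane, and 27.2 and 52.1 against 48.0 and 40.7 CPM between 2 and 20. For this inhibitory receptor the genotypes overlapped in each of these bins.

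**Figure D5:**
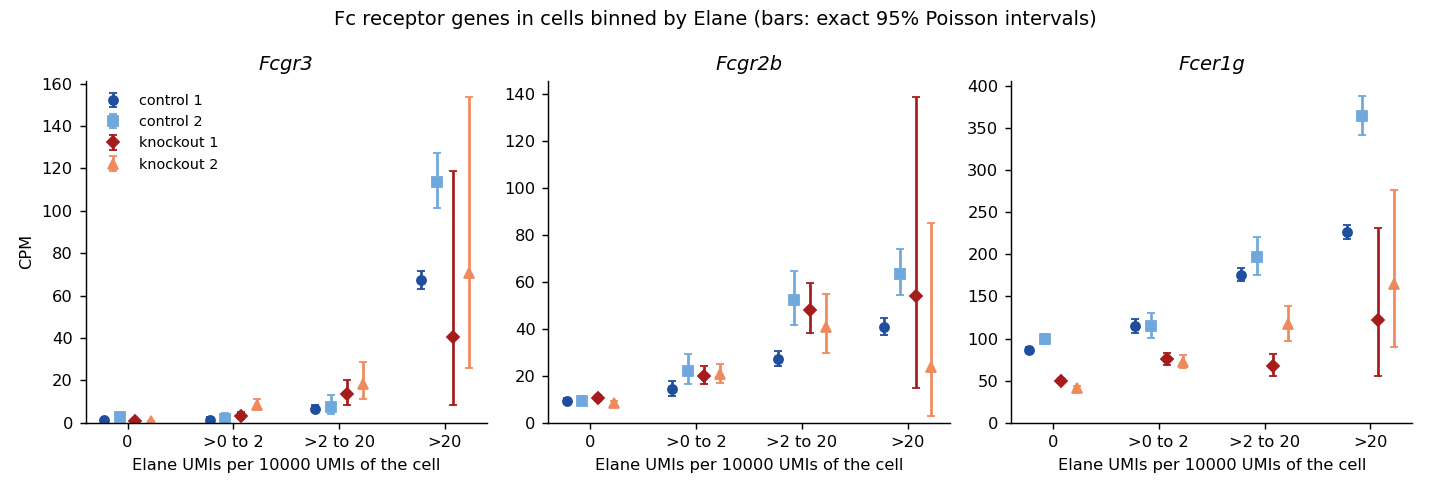
CPM of Fcgr3, Fcgr2b and Fcer1g in LSK cells binned by Elane UMIs per 10000 UMIs of the cell, 1 point per library with exact 95% Poisson intervals that cover counting error only. Fcgr3 was highest in the uppermost bin in all 4 libraries, and that bin held 986 and 81 control cells but 2 and 4 knockout cells; Fcer1g was lower in both knockouts in the 3 lower bins.

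The share of cells with a UMI was compared after each cell was thinned to 4000 UMIs, which left out 2124, 20, 178 and 305 shallower cells. Fcgr3 was then found in 3.62 ± 0.926% of control cells and 0.533 ± 0.153% of knockout cells (SD, n = 2), and Fcer1g in 31.5 ± 1.59% and 13.5 ± 2.72%. Ms4a2 was found in 0.492 ± 0.0969% and 1.07 ± 0.115%, and Fcgr2b in 6.61 ± 0.363% and 4.87 ± 1.13%. For these 4 genes the libraries of the genotypes did not overlap. The exact two-sided permutation p was 0.333 for each (0.500 adjusted over the 6 genes), the smallest that 2 against 2 libraries allow. Genes without a difference can separate in this way too, and the share of all genes that did so was not computed. Fcer1a, at 0.684 ± 0.248% and 0.668 ± 0.144%, and Fcgr1, at 0.250 ± 0.00622% and 0.222 ± 0.0870%, overlapped. Without thinning the direction of Fcgr2b turned, to 16.3% in controls and 17.3% in knockouts, and its CPM followed the thinned order. The directions of Fcgr1 (0.790% and 1.38%) and Fcer1a (1.05% and 1.19%) turned too, and their libraries then no longer overlapped.

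The shares were set beside those of cells in which the gene is not known. In the megakaryocyte-primed gate of control 1, at the same depth of 4000 UMIs, 0 of 219 cells held a Fcgr3 UMI, which allows a share of up to 1.37%, against 14.6% (exact 95% binomial interval 12.8 to 16.7) of the neutrophil-primed cells of that library. For Fcer1g, 2.90% (0.795 to 7.26) of the pro-B and pre-B cells of knockout 2, a type not known for this chain, held a UMI, against 11.6% (10.5 to 12.8) of all its cells. In knockout 1 the same gate had 2 of 13 cells with a UMI, 15.4% (1.92 to 45.5), close to the 15.5% of all its cells, and in controls it held too few cells for a share, so the background of Fcer1g is known for knockout 2 alone.

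The genes whose levels followed each member most closely over gates and libraries were taken by Pearson correlation of log2(CPM + 5) over 34 points, which share libraries and gates and so carry no p. A gate gave a point only for libraries with at least 20 cells in it. The basophil- and mast-primed gate thus entered through knockout 2 alone, where Fcer1a had 596 CPM in 35 cells. How far the correlations of Fcer1a and Ms4a2 rest on that point was not tested. Alox5, Gm11697 and Atp8b5 had only 213, 211 and 208 UMIs in all, and Fcgr1 itself had 145. For Fcer1g the closest was Tyrobp (r = 0.927), the adaptor that pairs with activating receptors in the same manner, followed by Anxa2, Tmed3, I830077J02Rik and Atf6b. For Fcgr3 they were 1700020L24Rik (r = 0.894), Papss2, Msrb1, Ltb4r1 and Igsf6. For Fcer1a they were Alox5 (r = 0.892), the 5-lipoxygenase of leukotriene synthesis, Gm11697, Atp8b5, Ndst2 and Csrp3, and Ms4a2 shared Csrp3 (r = 0.787) and Alox5 with it, beside Slc45a3, Slc24a3 and Poln. For Fcgr2b they were Pdia4 (r = 0.858), Ostf1, Ctsz, Dok3 and Dnajb11, and for Fcgr1 Ifi204 (r = 0.800), Nrp1, AI607873, Klrk1 and I830077J02Rik.

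A signalling list of 32 genes held partners of these receptors and related adaptors such as Tyrobp and Hcst. Of these 32 genes, 3 were called over all LSK cells, each lower in the knockout, against a background of 3.44% of all genes tested. The median log2 change of the list was −0.12 against −0.01 over all genes. Tyrobp had 195 and 174 CPM in controls and 71.9 and 63.0 CPM in knockouts (log2 −1.49, SE 0.15, adjusted p = 0.0077, edgeR). Hcst (DAP10), an adaptor encoded beside Tyrobp, fell by 1.41 on the log2 scale (adjusted p = 0.0326, edgeR), and Lat2, a scaffold of IgE receptor signalling, fell by 0.99 (adjusted p = 0.0326, edgeR). The enzymes downstream did not pass: the kinase Syk stood at −0.06 (adjusted p = 0.850), the kinase Lyn at −0.12 (adjusted p = 0.751) and the phosphatase Inpp5d at −0.14 (adjusted p = 0.588), all by edgeR. Inside the gates, Tyrobp passed in the lymphoid-primed gate (log2 −1.38, adjusted p = 0.0156, edgeR) and in ungated cells (log2 −1.27, adjusted p = 0.0108, edgeR), where Fcer1g passed too. In the stem-like gate it stood at −1.43 (adjusted p = 0.113, edgeR).

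Of 12 other genes for antibody receptors or proteins related to them, 8 had enough UMIs to be tested. Of these, 3 were called, against the same background of 3.44%, and all were higher in the knockout. They were Fcmr, the IgM receptor, Fcer2a, the low-affinity IgE receptor CD23, and Fcrla, a B cell protein related to Fc receptors. The median log2 change of the 8 was 1.91, against −0.01 over all genes. Fcgrt, the neonatal receptor that recycles IgG, stood at −0.41 (adjusted p = 0.457, edgeR). Fcgr4, the activating IgG receptor encoded between Fcgr2b and Fcgr3, stood at −0.88 (adjusted p = 0.381, edgeR) on 15 to 45 UMIs per library.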

How the data were processed

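The authors aligned 10x Chromium 3′ reads with Cell Ranger 3.1 to mm10 (GRCm38) and deposited filtered matrices of UMI counts, raw and per library. The Fc receptor genes, gate markers and partner lists were chosen with earlier results of these data known. Named partners were those past an adjusted p of 0.05 and a set of 6 given whatever their values; nearest genes were the 5 with the highest correlation among genes with at least 200 UMIs. A cell needed 200 detected genes and could have up to 10% of its UMIs from mitochondria (24973 of 25242 barcodes), and copied barcodes were then left out; doublets were not removed. CPM are UMIs per 1000000 UMIs of the cells summed. UMIs summed per library were fitted with edgeR 4.0.16 (R 4.3.3; TMM, filterByExpr, quasi-likelihood test, Benjamini-Hochberg adjustment over all genes tested), with DESeq2 1.42.0 as an alternative; steps were tested on simulated data. Intervals are exact (Poisson, Clopper-Pearson) and cover counting error only. Control and knockout libraries with equal replicate numbers are not paired by the labels.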

Additional observations from a re-analysis of the deposited data

Results flagged for a closer look

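The difference between genotypes of Ms4a2, the beta chain of the IgE receptor, was not the same in neutrophil-primed cells as in ungated cells: the effect in the gate exceeded that in ungated cells by 2.42 on the log2 scale (SE 0.72, adjusted p = 0.0411, edgeR with libraries as blocks), in a test added after the data were seen. In the gate Ms4a2 had 1.47 and 0.668 CPM in controls and 6.59 and 8.10 CPM in knockouts, and the gate's own fit gave a log2 change of 2.47 (SE 0.57, adjusted p = 0.101, edgeR). In ungated cells it had 1.70 and 2.61 CPM in controls and 2.36 and 1.20 CPM in knockouts. The gate's values rest on 25, 2, 9 and 6 UMIs, and Elane, a marker of the gate, had 5617 and 5549 CPM there in controls against 612 and 876 CPM in knockouts; their part in the result was not tested.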

How the results depend on the processing

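The count of 3 Fc receptor genes called over all LSK cells, beside 474 of all 13779 genes, became 5 without the filter on low counts. Calls over all genes then rose as well, to 1933 of 19166. The replicate numbers do not pair the samples: deviations of equally numbered libraries correlated by −0.175 to 0.068. With the replicate block 5 Fc receptor genes were called, beside 1257 of all 13779 genes. Crossing the pairs (added after the data were seen) also gave 5, beside 1735 of 13779. Inside gates and ungated cells the 5 calls became 9 without the filter, 3 with all deposited barcodes, 2 with gates drawn on thinned cells (where the megakaryocyte-primed and erythroid-primed gates fell under 20 cells and gave no value), 3 without cells of several gates and 2 to 7 when a library was left out. The 6 calls among partners became 5 to 11 when a library was left out. Calls over all genes moved too. In the neutrophil-primed gate they went from 69 of 9133 genes to 366 of 15445 without the filter. They were 15 of 9420 with all deposited barcodes, 76 of 8780 with gates on thinned cells and 15 of 8773 without cells of several gates. With a library left out, a genotype rests on a single library, and calls over all genes moved as well. The changed counts are therefore no sign of a change particular to Fc receptor genes or partners. The gate with the highest pooled level was the same for 6 genes under most settings, and for 3 with gates on thinned cells and for 3 without cells of several gates. Estimates near 0 changed sign. For Fcgr2b in the neutrophil-primed gate these were −0.0075 in DESeq2, −0.015 with all barcodes, −0.028 without the filter, −0.055 with crossed pairs, −0.24 with gates on thinned cells and −0.036 without cells of several gates, and leaving out a library gave −0.32 (without control 1) to 0.37, with −0.30 without knockout 1. For Fcgr2b in the megakaryocyte-primed gate they were −0.075 with crossed pairs and −0.029 with all barcodes, and leaving out a library gave −0.68 (without knockout 1) to 0.93, with −0.39 without control 1. Leaving out a library also gave Fcgr2b −0.21 (without control 1) to 1.15 in the lymphoid-primed gate and −0.36 to 0.0036 (without control 2) in ungated cells. In ungated cells it gave Fcer1a −2.65 to 0.24 (without control 1) and Ms4a2 −0.76 to 0.19 (without knockout 2), with 0.09 without control 2, and gates on thinned cells gave Ms4a2 0.46. The causes were not tested. Of the other alternative values for single genes, 249 kept direction and side of the threshold, 23 passed newly and 19 no longer passed. Fcgr1, at 17 to 64 UMIs per library, is limited by depth, and the monocyte- and dendritic-primed gate, with 17 cells in knockout 2, was not tested.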

Other observations

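The 3 genes for other receptors or related proteins that were called higher in the knockout had their UMIs partly in the mature B gate. Fcmr had 5 and 6 UMIs in all LSK cells of the controls and 167 and 232 in those of the knockouts (log2 4.89, adjusted p = 0.0079, edgeR), and of the latter 93 and 104 lay in the mature B gate. Fcer2a had 8 and 1 UMIs in controls and 42 and 42 in knockouts (log2 3.13, adjusted p = 0.0368, edgeR), with 30 and 18 of the knockout UMIs in the mature B gate. Fcrla had 29 and 18 UMIs in controls and 145 and 206 in knockouts (log2 2.59, adjusted p = 0.0205, edgeR), spread over the mature B, pro-B and pre-B and plasmacytoid dendritic gates and ungated cells. The mature B gate held 0 and 1 cells in controls and 65 and 72 in knockouts, with a median of 2281 and 1311 UMIs per knockout cell, and Kit, on which the cells were sorted, had a UMI in 6.15% and 9.72% of them.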
